A study of Homo sapiens with 6 samples.

Results

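The genes described here encode lysosomal hydrolases, lysosomal membrane proteins and the proteins that deliver hydrolases to the lysosome. They were chosen by name, from what their products do, with earlier results of these data known. The list held 49 genes, of which 48 had values among the 28563 Ensembl genes of the deposited table; GALC was not analysed here. They fall into 6 classes, namely 11 proteases, 14 glycosidases, 5 sulfatases, 7 lipid hydrolases and lipid-binding proteins, 8 membrane proteins, and 4 delivery enzymes and receptors.

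RNA was sequenced from cells labelled HepG2, a human line derived from a liver tumour, after exposure to polydatin (PD), a glucoside of resveratrol, or to its solvent DMSO. The PD group received 336 μM according to the sample labels, the DMSO group received no PD, and RNA was taken from both after 24 h. There were 3 libraries in each group, each from its own culture plate, and all plates came from a single cell line without a genetic change between groups. The p-values therefore measure the spread between plates of one line and not between lines or donors.

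Lysosomes are acidic organelles in which proteins, glycans, sulfated sugars and lipids are broken down. Most soluble hydrolases receive a mannose 6-phosphate tag in the Golgi, bind a receptor there and are carried to the endosome, where the acid releases them, while membrane proteins line the organelle and move cholesterol, cystine or ions across it. Many of these genes carry an E-box element with the core CACGTG in their promoters, which transcription factors of the MiT/TFE family (TFEB, TFE3, MITF) are known to bind.

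Values were given as FPKM, the fragments of a gene scaled to its length and to the depth of its library, so they are shares and not amounts per cell. In RNA from whole plates, fewer cells that express a gene and less of its RNA per cell cannot be told apart. Recovered from the values, the libraries held between 16308476 and 18071632 fragments, and the tested lysosomal genes had between 15 and 26794 fragments in a library, with at least 100 in every library for 42 of 44. Markers of the labelled cell type were weak in both groups. Of 20 hepatocyte markers, 10 were in the table, and 8 of these stayed at or below 0.172 FPKM in every library, the transferrin gene TF and the α1-antitrypsin gene SERPINA1 among them. ALB, AFP, APOB, TTR and 6 other markers had no values in the table and were not analysed here. The table holds no gene at 0 in all 6 libraries. The low levels go against the labelled cell type, and HepG2 is used here as the name the labels give. The urea cycle enzyme gene CPS1 was the exception at 225 ± 3.45 FPKM in DMSO and 109 ± 2.60 FPKM in PD (SD, n = 3 each). RBP4 was at 0.391 ± 0.0803 FPKM in DMSO, on 8 to 12 fragments, and reached 1.30 ± 0.376 FPKM in PD. Markers of leukocytes and macrophages were close to 0, with 5 of 10 in the table, none above 1 FPKM and 4 listed at 0 in at least 1 library. Of 10 fibroblast markers, 7 were in the table, and their summed level was 5.04 to 5.83 FPKM in DMSO and 5.87 to 6.28 FPKM in PD. Of their 3 tested genes, ACTA2 was higher and COL1A1 and PDGFRB were not called.

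Transcripts of most lysosomal genes were more abundant in PD. The 48 genes together held 1056, 1032 and 1079 FPKM in the DMSO libraries and 1635, 1702 and 1658 FPKM in the PD libraries, or 0.423% to 0.436% of all fragments in DMSO and 0.662% to 0.689% in PD. The level filter, 0.5 FPKM averaged across all 6 libraries, left 44 of them for testing. In PD 39 were higher, 1 was lower and 4 were not called, where a call needed a Benjamini-Hochberg adjusted p no greater than 0.05 over all 14400 genes tested with limma on log2(FPKM + 1). Calls were common in this comparison, since 58.1% of all tested genes were called, 31.9% higher and 26.2% lower. The largest rises belonged to LGMN, NPC2, NEU1, CTSD and GM2A, and the single fall to CTSS.

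A rise of at least 2-fold was found for 9 genes (LGMN, NPC2, NEU1, CTSD, GM2A, LIPA, GAA, GLA and CTSL) and a fall of that size for 1, where 2.04% and 1.57% of all tested genes, or 3.61% in either direction, passed the same thresholds. The 44 genes had a median log2 fold change of 0.64 and a range from −1.13 to 1.65, against 0.01 over all genes tested. The quartiles of all tested genes lay at −0.25 and 0.29, so the usual lysosomal gene rose by less than 2-fold and was still above most genes. The rises of 15 of the 44 exceeded the 95th percentile of all tested genes, 0.78. In 39 genes every PD library lay above every DMSO library, and in 1 every PD library lay below, where 35.6% and 29.9% of all tested genes separated in these directions. The 2-fold cut was on the estimate, and the 95% intervals of GAA, GLA, CTSL and CTSS also held changes below 2-fold. Fold changes on the log2(FPKM + 1) scale understate the change of low genes. FUCA1 and SMPD1 missed the cut on this scale, although their ratios of mean FPKM were 2.08 and 2.03.

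**Figure D1:**
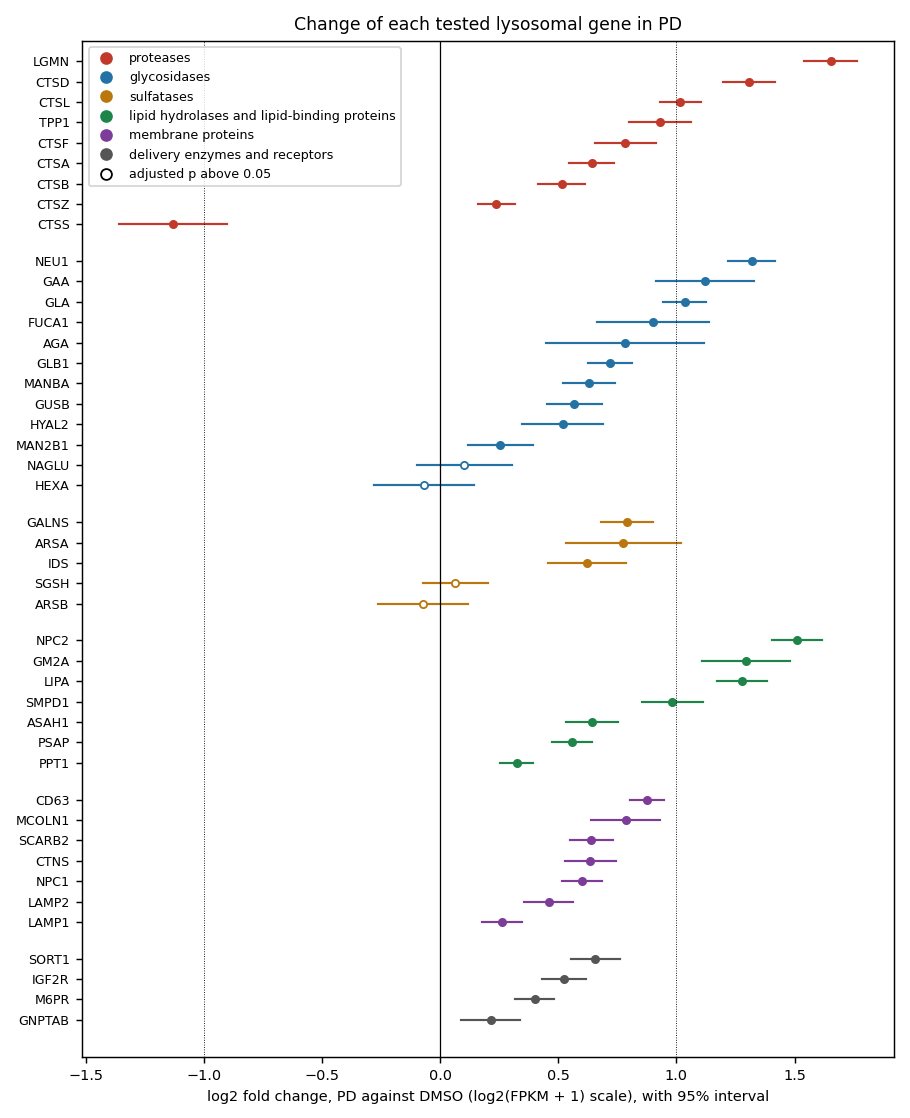
Log2 fold change (PD minus DMSO, on the log2(FPKM + 1) scale) of the 44 tested lysosomal genes, coloured and grouped by class, with 95% confidence intervals, open points for genes that were not called and dotted lines at a 2-fold change. Of these genes, 39 were called higher, CTSS alone was called lower, and the intervals of NAGLU, HEXA, SGSH and ARSB include 0.

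The plot of fold changes by class shows that every class was centred above 0. The class medians were 0.98 for lipid hydrolases and lipid-binding proteins, 0.78 for proteases, 0.68 for glycosidases, 0.64 for membrane proteins, 0.62 for sulfatases and 0.46 for delivery enzymes and receptors. Genes of one class spread widely around these medians, from −1.13 to 1.65 in the proteases, so the order of the classes is a description only.

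Because the E-box is a known feature of lysosomal promoters, the promoter windows of the list were searched for it. The windows came from RefSeq (GRCh38.p14) and ran from 250 bases before to 50 bases after each annotated start. At least 1 window was found for 38 of the 49 genes, and for none of ARSA, CTSB, PSAP, LAMP2, CTSS, MANBA, LGMN, SGSH, NAGLU, HEXA and ASAH1. The E-box CACGTG, the longer palindrome TCACGTGA and that palindrome with a G before and a C after it were searched. Each contains the shorter ones and reads the same on both strands. The longest was present in 4 of 38 genes (GAA, GALNS, IGF2R and MCOLN1), or 10.5%. It was present in 0.938% of the 9809 tested genes with a window and in 0.421% of all 27305 genes with a window. TCACGTGA was present in 7 of 38 genes, or 18.4%, the additional ones being LAMP1, CTSA and CLN3. Its shares were 2.31% of the same tested genes and 1.18% of all genes. CACGTG was present in 13 of 38 genes, or 34.2%, adding CTSD, NEU1, CTSF, CD63, M6PR and ARSB. Its shares were 12.8% of tested genes and 8.77% of all genes, and its search was chosen after seeing the data. Since the element was already known from lysosomal promoters, its excess in a lysosomal list is no result about PD. A match is a stretch of letters and was not measured as a binding site.

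The following windows are 30 bases long and are shown because they hold the matches of the genes with the longest palindrome, with TCACGTGA in capitals. They lie at chr17:80101493-80101522 and chr17:80101538-80101567 on the plus strand for GAA, the second inside an annotated 5′ UTR exon of GAA, and at chr16:88857104-88857133 on the minus strand for GALNS, where the other strand carries an exon of TRAPPC2L. Those of IGF2R lie at chr6:159968938-159968967, chr6:159968996-159969025 and chr6:159969042-159969071, and those of MCOLN1 at chr19:7522571-7522600 and chr19:7522598-7522627, all on the plus strand and, but for the last 4 bases of the second MCOLN1 window, before the annotated exons.
GAA, farther from the start: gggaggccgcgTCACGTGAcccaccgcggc
GAA, nearer to the start: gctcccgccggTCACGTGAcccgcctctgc
GALNS: caggcaccgcgTCACGTGAcccgccgctgg
IGF2R, farthest: gcgcgctgcgcTCACGTGAcccgggcctgg
IGF2R, middle: gaacaagggagTCACGTGAgcggggggcgg
IGF2R, nearest: ccgggcggctgTCACGTGAcgcggttccgg
MCOLN1, farther: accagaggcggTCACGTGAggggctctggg
MCOLN1, nearer: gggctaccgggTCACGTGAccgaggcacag

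LAMP1 had the densest window of E-box cores, with 4 copies of CACGTG (in capitals) between positions −192 and −137 from its start, in a stretch at chr13:113297039-113297108 on the plus strand outside annotated exons. It is followed by a TCACGTGA in the window chr13:113297199-113297228. Another TCACGTGA of LAMP1 spans the start, at positions −2 to 6, and is not printed. CTSD (chr11:1763957-1763986, minus strand, overlapping a CTSD exon by 8 bases) and NEU1 (chr6:31862930-31862959, minus strand) are shown as strongly raised genes with the short core, and ARSB (chr5:78986101-78986130, minus strand) as a gene with the core that was not called.
LAMP1, repeats: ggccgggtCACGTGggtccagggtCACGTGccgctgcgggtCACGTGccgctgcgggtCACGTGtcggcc
LAMP1, near the start: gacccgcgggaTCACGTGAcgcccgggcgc
CTSD: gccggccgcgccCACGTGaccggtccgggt
NEU1: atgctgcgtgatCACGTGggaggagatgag
ARSB: taattcaataagCACGTGactaaaggattt

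Genes with and without these letters were both mostly higher, where 31.9% of all tested genes were. For the longest palindrome, 4 of 4 tested genes with a match were higher at a median log2 fold change of 0.79, and 28 of 29 without it at a median of 0.66. Among tested genes with TCACGTGA, 6 of 6 were higher and the median log2 fold change was 0.71, and among those with a window but no match 26 of 27 were higher with a median of 0.72. For CACGTG the counts were 11 of 12 with a median of 0.78 and 21 of 21 with a median of 0.66. The genes with a match ranged from −0.07 (ARSB) to 1.32 (NEU1).

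**Figure D2:**
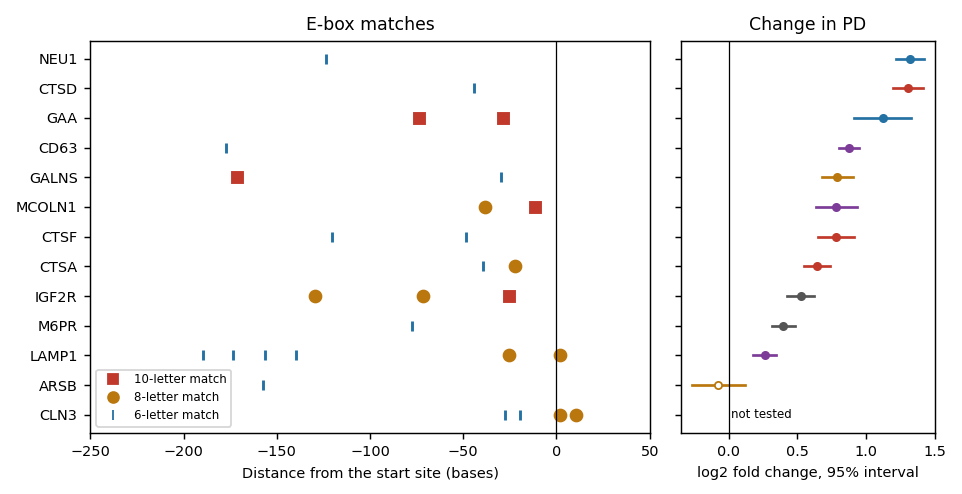
Distance in bases from the annotated start to each match of CACGTG and of its 2 longer palindromes in the promoter windows of 13 lysosomal genes (left; a match inside a longer one is not drawn again), with the log2 fold change and 95% interval of the 12 tested ones, coloured by class (right; CLN3 was not tested). Most matches lie before the start, and LAMP1 carries 4 copies of CACGTG between −192 and −137.

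Of the 9 proteases tested, 8 were higher in PD, 3 of them by at least 2-fold, and CTSS was lower. LGMN (ENSG00000100600, chr14:92703807-92748679, minus strand) encodes legumain, an endopeptidase that cleaves after asparagine and processes several cathepsins. Its level was 3.56, 3.87 and 3.85 FPKM in DMSO and 14.1, 13.5 and 14.3 FPKM in PD. Every PD library stood far above the DMSO libraries, and the ratio of the means was 3.72. The log2 fold change was 1.65 ± 0.05 (SE; adjusted p = 1.74e-06, limma), the largest of the list.

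CTSD (ENSG00000117984, chr11:1752752-1764573, minus strand) encodes the aspartic protease cathepsin D. It was at 8.96, 8.99 and 9.48 FPKM in DMSO and at 22.8, 24.6 and 24.9 FPKM in PD. The groups did not overlap, and the log2 fold change was 1.31 ± 0.05 (adjusted p = 3.04e-06). Of its 5697 annotated exon bases, 1556, summed over the genes, are shared with 2 others on its strand. Another 1331 are shared with 1 antisense gene. CTSL, the cysteine protease cathepsin L, started from a higher level and doubled, from 74.7 ± 3.04 to 152 ± 3.39 FPKM. CTSZ (ENSG00000101160, chr20:58985686-59008238, minus strand), the carboxypeptidase cathepsin Z, was the most abundant protease transcript in DMSO, and its 115, 114 and 122 FPKM rose to 137, 139 and 138 FPKM. Its libraries separated as well, but the change was small, at 0.24 ± 0.03 on the log2 scale (adjusted p = 0.000706), so that CTSL stood above CTSZ in all PD libraries and below it in all DMSO libraries.

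The remaining tested proteases lay between these. TPP1, a tripeptidyl peptidase, rose by 0.93 to 32.3 ± 1.58 FPKM, CTSF by 0.78 to 14.7 ± 0.109 FPKM, CTSA, the carboxypeptidase that protects β-galactosidase and neuraminidase, by 0.64 to 17.7 ± 0.421 FPKM, and CTSB, the cysteine protease cathepsin B, by 0.51 to 23.2 ± 0.184 FPKM.

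CTSS (ENSG00000163131, chr1:150730079-150765957, minus strand) encodes cathepsin S, a cysteine protease best known from antigen-presenting cells. It was at 1.57, 1.81 and 1.98 FPKM in DMSO and at 0.275, 0.202 and 0.334 FPKM in PD. All PD libraries lay below all DMSO libraries, and the DMSO mean was 6.61 times the PD mean. The log2 fold change on the log2(FPKM + 1) scale was −1.13 ± 0.10 (adjusted p = 6.26e-05), and it was −2.36 with a pseudocount of 0.1. The gene passed the level filter through its DMSO libraries, which held 115 to 143 fragments against 15 to 23 in PD. The summed leukocyte and macrophage markers were 0.632, 0.483 and 0.156 FPKM in DMSO and 0.259, 0.209 and 0.266 FPKM in PD, and their part in the CTSS values was not tested.

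Both proteases below the level filter were not tested. CTSC, the dipeptidyl peptidase cathepsin C, was at 0.466, 0.340 and 0.389 FPKM in DMSO and at 0.577, 0.584 and 0.612 FPKM in PD. All its PD values were above its DMSO values, at 65 to 119 fragments. CTSH, an aminopeptidase, was at 0.0196, 0.0101 and 0.0595 FPKM in DMSO and at 0.0376, 0.0194 and 0 FPKM in PD. That is at most 6 fragments at the smallest length that fits, and a longer one would give a multiple.

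**Figure D3:**
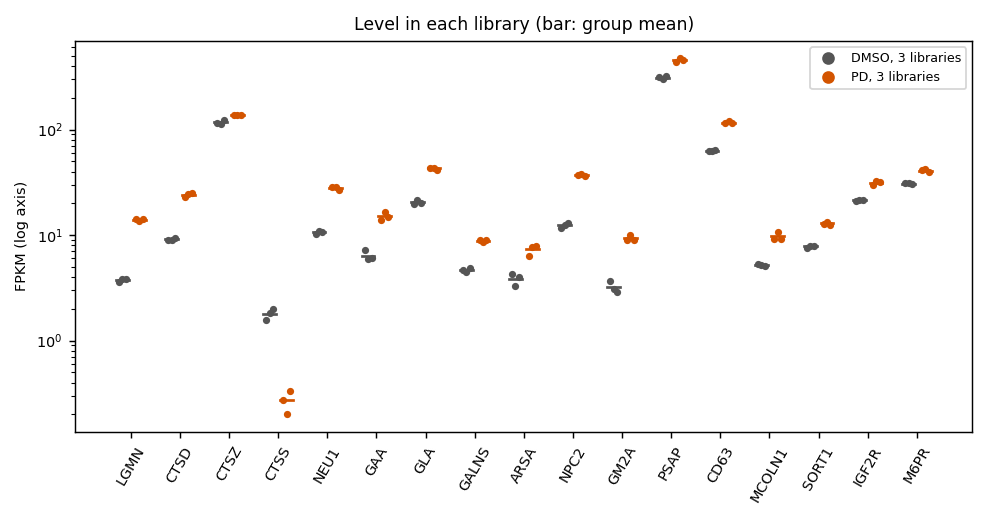
FPKM in each of the 6 libraries (log axis) for called genes of the lysosomal list, with DMSO and PD points and a bar at each group mean. The points of the groups separate for every gene drawn, upward for all of them except CTSS, and the DMSO means of the rising genes run from 3.21 FPKM for GM2A to 310 FPKM for PSAP.

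Among the glycosidases, 10 of 12 tested genes were higher and 2 were not called. NEU1 (ENSG00000204386, chr6:31857659-31862905, minus strand) encodes the neuraminidase that removes sialic acid. Its 10.3, 11.0 and 10.7 FPKM in DMSO became 28.6, 28.7 and 26.9 FPKM in PD, a ratio of 2.63 and a log2 fold change of 1.32 ± 0.04 (adjusted p = 2.57e-06). GAA (ENSG00000171298, chr17:80101533-80119881, plus strand), the acid α-glucosidase that degrades glycogen, was at 7.28, 5.88 and 6.03 FPKM in DMSO and at 13.8, 16.5 and 14.9 FPKM in PD. The spread within each group was wider for GAA than for NEU1, yet the lowest PD value was well above the highest DMSO value, and the log2 fold change was 1.12 ± 0.09 (adjusted p = 4.43e-05).

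GLA (ENSG00000102393, chrX:101393273-101408012, minus strand), the α-galactosidase lost in Fabry disease, had the highest mean of the class over all 6 libraries, although GUSB was above it in DMSO. It was at 19.9, 21.3 and 20.1 FPKM in DMSO and at 43.6, 43.5 and 41.7 FPKM in PD. The groups were again apart, with a log2 fold change of 1.04 ± 0.04 (adjusted p = 3.19e-06). The other called glycosidases rose by less than 2-fold on this scale. FUCA1 (α-fucosidase) rose by 0.90, AGA (aspartylglucosaminidase) by 0.78, GLB1 (β-galactosidase) by 0.72, MANBA (β-mannosidase) by 0.63, GUSB (β-glucuronidase) by 0.57, HYAL2 (a hyaluronidase) by 0.52 and MAN2B1 (α-mannosidase) by 0.25. AGA was the least precise of these, with DMSO values of 1.64 to 2.85 FPKM and a 95% interval from 0.45 to 1.12.

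NAGLU, which removes N-acetylglucosamine from heparan sulfate, was at 6.20 ± 0.498 FPKM in DMSO and 6.74 ± 0.754 FPKM in PD, with overlapping groups and an interval from −0.10 to 0.30 on the log2 scale (adjusted p = 0.346). HEXA, which acts on ganglioside GM2, was at 0.799 ± 0.0777 and 0.717 ± 0.0657 FPKM, with an interval from −0.28 to 0.14 (adjusted p = 0.551). A 2-fold change on this scale lay outside the NAGLU interval. HEXA was below 1 FPKM in every library, where log2(FPKM + 1) cannot show a 2-fold fall, so its interval cannot be read this way. Exons of HEXA are shared with 1 other gene on its strand over 617 bases and with 2 antisense genes over 2238 bases, summed over the genes. IDUA, the α-iduronidase, was below the filter at 0.188, 0.0895 and 0.0585 FPKM in DMSO and 0.125, 0.200 and 0.138 FPKM in PD, from 4 to 14 fragments.

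The sulfatases divided into 3 genes that rose and 2 that were not called. GALNS (ENSG00000141012, chr16:88813734-88856970, minus strand), which desulfates keratan and chondroitin sulfates, was at 4.65, 4.51 and 4.87 FPKM in DMSO and at 8.95, 8.56 and 8.95 FPKM in PD. The groups were well separated, with a log2 fold change of 0.79 ± 0.05 (adjusted p = 1.44e-05). ARSA (ENSG00000100299, chr22:50622754-50628173, minus strand), the arylsulfatase that acts on sulfatide, was at 4.28, 3.28 and 4.01 FPKM in DMSO and at 6.34, 7.69 and 7.91 FPKM in PD.

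ARSA varied more between plates than GALNS, and its log2 fold change of 0.78 ± 0.10 had an interval from 0.53 to 1.02 (adjusted p = 0.000552). IDS, the iduronate sulfatase, rose by 0.62 to 3.99 ± 0.0767 FPKM, but its level is uncertain. Its exons, 9294 annotated bases, overlap 2 other genes of its strand. The overlaps sum to 7055 bases, where a base can count for each gene. SGSH, a heparan N-sulfatase, was at 3.89 ± 0.120 and 4.11 ± 0.260 FPKM (0.06, interval −0.07 to 0.20, adjusted p = 0.386). ARSB, the sulfatase of dermatan and chondroitin sulfates, was at 3.14 ± 0.307 and 2.93 ± 0.261 FPKM (−0.07, interval −0.26 to 0.12, adjusted p = 0.468). The PD and DMSO values of both genes overlapped.

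All 7 lipid hydrolases and lipid-binding proteins were higher, 3 by at least 2-fold. NPC2 (ENSG00000119655, chr14:74476192-74494177, minus strand), the soluble protein that hands cholesterol to NPC1, was at 11.7, 12.5 and 12.9 FPKM in DMSO and at 37.5, 37.8 and 36.1 FPKM in PD. The ratio of the means was 2.99 and the log2 fold change 1.51 ± 0.04 (adjusted p = 1.89e-06). GM2A (ENSG00000196743, chr5:151212150-151270440, plus strand), the activator that presents ganglioside GM2 to its hydrolase, was at 3.66, 3.08 and 2.90 FPKM in DMSO and at 8.92, 9.96 and 9.05 FPKM in PD. No library of one group reached the other, and the log2 fold change was 1.29 ± 0.08 (adjusted p = 1.51e-05).

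PSAP (ENSG00000197746, chr10:71816298-71851251, minus strand) encodes prosaposin, the precursor of the saposins that activate sphingolipid hydrolases, and had the highest level of the whole list. It was at 312, 299 and 319 FPKM in DMSO and at 442, 472 and 457 FPKM in PD, a ratio of 1.47 and a log2 fold change of 0.56 ± 0.04 (adjusted p = 1.84e-05). Because of its level this moderate rise was the largest absolute gain of any listed gene. LIPA, the acid lipase that frees cholesterol from its esters, rose by 1.28 to 18.2 ± 0.683 FPKM, SMPD1, the acid sphingomyelinase, by 0.98 to 37.5 ± 1.56 FPKM, ASAH1, the acid ceramidase, by 0.64 to 10.1 ± 0.283 FPKM, and PPT1, a thioesterase that removes palmitate from proteins, by 0.32 to 64.4 ± 0.252 FPKM.

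All 7 tested membrane proteins were higher and none by 2-fold. CD63 (ENSG00000135404, chr12:55725323-55729707, minus strand), a tetraspanin of late endosomes and lysosomes, had the highest mean over all 6 libraries, although LAMP1 was above it in DMSO. CD63 was at 62.2, 62.4 and 64.6 FPKM in DMSO and 116, 119 and 114 FPKM in PD. Its log2 fold change was 0.88 ± 0.03 (adjusted p = 2.9e-06), the largest of the class. MCOLN1 (ENSG00000090674, chr19:7522624-7534009, plus strand), a cation channel that releases lysosomal calcium, was at 5.30, 5.19 and 5.13 FPKM in DMSO and at 9.22, 10.7 and 9.22 FPKM in PD. The groups did not overlap, and the log2 fold change was 0.78 ± 0.06 (adjusted p = 4.59e-05).

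LAMP1, a heavily glycosylated protein that lines the lysosomal membrane, rose only from 73.2 ± 2.21 to 88.0 ± 2.57 FPKM (0.26, interval 0.18 to 0.35, adjusted p = 0.000586), and its relative LAMP2 rose by 0.46. SCARB2, an integral protein of the lysosomal membrane, and CTNS, the cystine exporter, each rose by 0.64, and NPC1, the cholesterol transporter, by 0.60. CLN3, whose loss causes juvenile neuronal ceroid lipofuscinosis, was close to 0, at 0.0176, 0.0303 and 0 FPKM in DMSO and 0.0168, 0.0174 and 0.0311 FPKM in PD. These values rest on at most 5 fragments at the smallest fitting length. Of its 9813 annotated exon bases, 2480 are shared with another gene of the same strand.

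The 4 delivery genes had the lowest class median. SORT1, encoding sortilin, a sorting receptor that does not need the mannose 6-phosphate tag, was at 7.61, 7.89 and 7.91 FPKM in DMSO and at 12.7, 13.4 and 12.5 FPKM in PD (0.66 ± 0.04, adjusted p = 2.1e-05). Of the mannose 6-phosphate receptors, IGF2R (ENSG00000197081, chr6:159969082-160113507, plus strand) was at 21.2, 21.5 and 21.7 FPKM in DMSO and 29.9, 32.6 and 31.5 FPKM in PD (0.52 ± 0.04, adjusted p = 4.02e-05). M6PR was at 31.1, 30.9 and 30.4 FPKM in DMSO and 41.4, 42.0 and 39.4 FPKM in PD (0.40 ± 0.03, adjusted p = 6.78e-05).

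The DMSO values of these receptors varied little, and all PD values lay above them. GNPTAB, which encodes the phosphotransferase subunits that start the mannose 6-phosphate tag, rose by 0.21, from 4.83 ± 0.267 to 5.76 ± 0.151 FPKM, with the highest adjusted p among the called genes (0.0106).

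**Figure D4:**
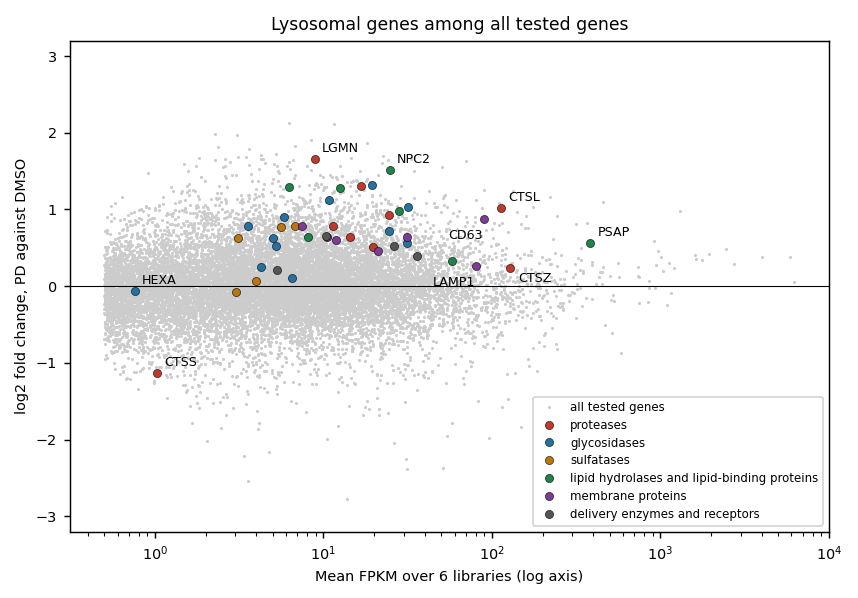
Log2 fold change of each tested lysosomal gene against its mean level over the 6 libraries (FPKM, log axis), coloured by class over all tested genes in grey. The abundant genes PSAP, CTSZ, LAMP1 and PPT1 rose by 0.24 to 0.56, while CTSL and CD63 combine a high level with rises of 1.02 and 0.88.

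Since the genes rose by unequal amounts, the makeup of the lysosomal transcript pool shifted, as the plot of change against level shows. PSAP made up 29.4% ± 0.353 of the summed FPKM of the 48 genes in DMSO and 27.4% ± 0.366 in PD, CTSZ 11.1% and 8.28%, and LAMP1 6.93% and 5.28%. CTSL went from 7.07% to 9.13% and CD63 from 5.97% to 7.0%. By class, the summed FPKM rose from 256, 249.8 and 269 to 409.8, 422 and 418 in the proteases. It rose from 412, 394 and 419 to 618, 652 and 631 in the lipid hydrolases and lipid-binding proteins. The sum of the delivery genes rose from 64.5, 65.4 and 64.7 to 89.6, 93.7 and 89.4.

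Some listed products work together, and their transcripts can be set side by side. Cathepsin A, β-galactosidase and neuraminidase form one complex, and CTSA, GLB1 and NEU1 rose by 0.64, 0.72 and 1.32. NPC2 rose by 1.51 and its partner NPC1 by 0.60, with intervals that did not meet.

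Other lysosomal genes outside the 49 gave similar counts. Of 40 such genes, 35 were tested, 30 were higher and 1 was lower, at a median of 0.67 on the log2 scale. Over all tested genes the shares were 31.9% higher and 26.2% lower. Among the rises were those of ATP13A2, a polyamine transporter (1.35), and CTSV, cathepsin V (1.30, from 0.469 ± 0.121 to 2.61 ± 0.201 FPKM), which passed the filter through its PD libraries. The fall was that of LAPTM4B, a transmembrane protein, from 78.2 ± 0.785 to 73.5 ± 1.46 FPKM (−0.09, adjusted p = 0.031). The mannose 6-phosphate enzymes NAGPA and GNPTG rose by 0.39 and 0.33.

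Of the cystatins, inhibitors of cysteine cathepsins, 3 were tested and called higher (31.9% of all tested genes were), at a median of 0.78. CSTB went from 56.9 ± 3.83 to 98.2 ± 0.633 FPKM, CST3 from 16.7 ± 0.265 to 25.8 ± 0.754 FPKM and CSTA from 0.213 ± 0.0733 to 1.18 ± 0.0651 FPKM, but CSTA passed the filter only through its PD libraries.

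The sorting machinery was examined next. Of 12 genes for adaptors and retromer subunits, which load and recycle the receptors, 4 were higher, 1 was lower and 7 were not called, and the median was 0.12. The share called higher was near the 31.9% of all tested genes. AP1M1 (0.35) and AP1B1 (0.29), subunits of the adaptor AP-1, and GGA2 (0.26), a receptor-binding adaptor, had the largest rises, and its relative GGA1 fell by 0.22 on the log2 scale. Of the MiT/TFE factors, 3 were tested, none was higher and 1 was lower, where 31.9% and 26.2% of all tested genes were. TFE3 was at 25.8 ± 1.48 FPKM in DMSO and 26.7 ± 1.48 FPKM in PD (adjusted p = 0.473), and TFEB at 2.26 ± 0.196 and 1.98 ± 0.188 FPKM (adjusted p = 0.195). MITF was at 10.5, 11.5 and 10.2 FPKM in DMSO and at 5.29, 4.55 and 4.76 FPKM in PD (−1.0, adjusted p = 2.22e-05), with no overlap between the groups. TFEC was not analysed here, and transcript levels do not measure the location or activity of these factors.

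**Figure D5:**
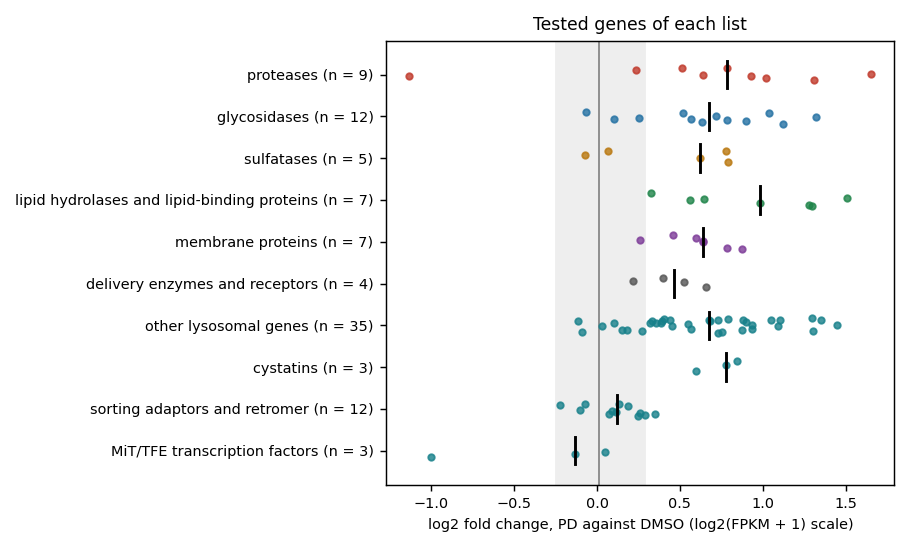
Log2 fold changes (PD minus DMSO) of the tested genes in the lysosomal classes and in the related lists, 1 point per gene with a bar at the median of each list, and the median and quartiles of all tested genes as a line and grey band. The medians of the 6 lysosomal classes lie between 0.46 and 0.98, that of the other lysosomal genes at 0.67, that of the sorting genes at 0.12 and that of the MiT/TFE factors at −0.13.

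Exons of 27 of the 49 genes overlap another annotated gene, 13 of them on the same strand and 21 on the opposite strand. Pseudogene copies, searched in the annotation by symbol alone, were found for 7 (CTSL, LGMN, GUSB, FUCA1, IDS, GM2A and M6PR). The values of all these genes are less certain, since the strand setting of the counting is not given in the sources used here. Among the 20 tested genes without any overlap, 18 were higher and 1 was lower, with a median of 0.72. Among the 15 that also lack a copy found by symbol, 13 were higher and 1 was lower, with a median of 0.64.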

How the data were processed

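HepG2 cells were compared after PD or DMSO, with 3 libraries per group assigned by the sample labels. The authors aligned reads to hg38 with HISAT2, counted them with HTSeq 0.6.0 and deposited FPKM values per gene, normalised for gene length and library depth, under Ensembl identifiers. Strand setting and annotation release are not given in the sources used here. The labels give 336 μM PD and the study's methods a lower dose.

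Genes that averaged 0.5 FPKM or more were tested on log2(FPKM + 1) with limma 3.58.1 (R 4.3.3), using a variance trend and Benjamini-Hochberg adjustment, at an adjusted p of 0.05 with and without 2-fold. The script was tested on simulated data. Whole fragments and library totals were recovered from the FPKM values for all 28563 genes, 12879 at the annotated length and 15684 at another length. Values had to be close to whole numbers, with a wider tolerance for large counts. At another length the smallest fitting length was taken, so those fragments are known only up to a common factor. Voom on the recovered fragments was an alternative. Symbols, positions and overlaps came from GENCODE on GRCh38.

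Chi-square per gene was 2.35 to 3.94 between libraries of a group and 56.4 to 65.7 between groups, so no library was a copy. Correlations of same-numbered deviations were −0.03, 0.00 and 0.09, and the labels give no shared batch, so numbers were not treated as pairs. Given by library are, per class, the 2 largest called changes and the highest level, a member called against the median, and members below the filter. Other lists give up to 3 rises and 3 falls. A few genes this rule would name are not reported here. The members and lists were chosen with earlier results of these data known. The CACGTG search and the windows of ARSB, CTSD, NEU1 and the LAMP1 repeats were chosen after seeing the data.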

Additional observations from a re-analysis of the deposited data

How the results depend on the processing

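Alternatives were a pseudocount of 0.1, no filter, the replicate block, median-of-ratios and upper quartile scaling, voom on recovered fragments, and leaving out each library. No called or uncalled lysosomal gene of the 44 changed its call or direction under any of them. The replicate block left 39 genes higher and 1 lower, 9 and 1 of them by 2-fold, and the numbers do not pair the libraries. Voom tested 45 genes and called 40 higher, with CTSC as the addition. Genes higher by at least 2-fold numbered 12 with a pseudocount of 0.1 and with voom, 8 with median-of-ratios, 7 with upper quartile scaling, and 8 to 11 without a single library.

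Medians moved slightly, all staying positive. With a pseudocount of 0.1 they were 0.72 for all genes, 0.85 for proteases, 0.75 for glycosidases, 0.81 for sulfatases and 0.66 for membrane proteins, and with voom 0.72, 0.76 for glycosidases, 0.83 for sulfatases and 0.66 for membrane proteins, since a smaller offset shrinks low genes less. Without the filter they were 0.64 for proteases, 0.63 for glycosidases and 0.62 for membrane proteins, where near-absent genes entered. With median-of-ratios scaling they were 0.61 for all genes, 0.64 for glycosidases and 0.60 for membrane proteins, and with upper quartile scaling 0.60, 0.63 for glycosidases, 0.59 for sulfatases, 0.59 for membrane proteins and 0.42 for delivery genes, since both scalings lower PD relative to DMSO. Without a single library they ranged over 0.62 to 0.66 for all genes, 0.67 to 0.79 for proteases, 0.61 to 0.69 for glycosidases, 0.57 to 0.68 for sulfatases, 0.93 to 1.01 for lipid genes, 0.61 to 0.65 for membrane proteins and 0.44 to 0.47 for delivery genes, and 39 genes stayed higher and 1 lower.

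Subsets chosen after seeing the data held fewer genes. Without exon overlap 18 of 20 were higher, 5 by 2-fold, with a median of 0.72. When genes with pseudogene copies found by symbol were also left out, 13 of 15 were higher and 2 by 2-fold. CTSH, IDUA and CLN3 had too few fragments to show a difference, and CTSC was called with voom alone. Each group holds plates of 1 line at 1 dose and time, so neither dose dependence nor other hepatic cells were measured.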
